A study of Homo sapiens with 48 samples.

Results

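The 7 genes of the FOS and JUN families, which encode the subunits of the transcription factor AP-1, were followed across treatments and times in a HEK293 line that expresses the angiotensin II receptor AT1R. They were found by their symbols and are 7 of the 60610 genes of the count table: FOS (ENSG00000170345), FOSB, FOSL1, FOSL2, JUN, JUNB and JUND. All 7 passed the filter on low counts and are among the 19626 genes tested. HEK293 is a human embryonic kidney cell line. The cells carried a stably transfected AT1R plasmid, came from 1 clone obtained by limited dilution under puromycin and losartan (an AT1R blocker), and were moved to DMEM without serum before stimulation, so these conditions are shared by every group, controls included. Cells were left as control or received 1 nM angiotensin II (AII), 10 µg/L epidermal growth factor (EGF) or AII + EGF together, for 6 h or 24 h. Poly(A)-selected RNA was sequenced, and the labels list 6 libraries in each of the 8 groups. The labels do not say whether these came from separate cultures, and the p-values therefore measure the spread between libraries, which may be technical.

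Of the 48 libraries, 38 entered the comparisons. The counts of 8 libraries formed 4 near-identical pairs, and 3 of these pairs joined libraries of different labels. Each pair agreed more closely than independent sampling of reads would give (chi-square per degree of freedom 0.397 to 0.505, against 2.03 for the next closest of 1128 pairs). Another 2 libraries were left out because they went against their labels: on a scale that runs from 0 (AII at 6 h) to 1 (AII + EGF at 6 h) over 1488 other genes, the library labelled AII at 6 h, replicate 6, lay at 0.86 and the one labelled AII + EGF at 6 h, replicate 6, at −0.01. This left 4 control, 5 AII, 3 EGF and 4 AII + EGF libraries at 6 h and 6, 5, 5 and 6 at 24 h. Some of those kept were also close: AII at 6 h, replicates 1 and 2 (2.03), and EGF at 6 h, replicates 3 and 4 (3.325). The median was 48.9 over pairs within a group, near-identical ones aside. Thus 2 of the 3 EGF libraries at 6 h may not be independent, and the fit counts them as separate. Errors of comparisons with EGF at 6 h may therefore be too small. Since the 2 doubtful libraries were left out for their expression, the 6 h results are also given with them (40 libraries) and with all 48. Totals of the 38 libraries ranged from 17.8 to 29.96 M counts. The 3 EGF libraries at 6 h were the deepest (28.03 to 29.96 M, against 19 to 22.7 M in control at 6 h), and the part of this difference in the results was not tested. Of the markers of HEK293, NEFM (3443 CPM in control at 6 h), NEFL (795 CPM), LHX1 (8.54 CPM), INA (5.05 CPM) and PAX2 (0.50 CPM) were all detected. NEFM and INA themselves rose under AII + EGF at 6 h (log2 1.32 and 1.71). Markers of blood (PTPRC, CD3E), endothelium (PECAM1, CDH5) and liver (ALB) reached at most 9 counts in any library. COL1A1, of fibroblasts, was at 13.6 CPM and EPCAM, of epithelium, at 0.38 CPM in control at 6 h, and COL1A1 was called higher in control at 24 h (log2 1.04).

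AP-1 is a dimer that binds DNA through a basic region next to a leucine zipper. FOS proteins cannot pair with themselves and bind DNA as partners of JUN proteins, whereas JUN proteins form dimers with one another as well. Growth factors and Gq-coupled receptors such as AT1R switch on FOS and several relatives within minutes through ERK, SRF with its ternary complex factors, and CREB, as immediate-early genes whose mRNA is short-lived, and AP-1 in turn acts on genes of growth, matrix breakdown and secreted factors. The study asked how EGF receptor and AT1R signals combine in transcription, and the earliest time sampled here was 6 h.

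On GRCh38 the genes lie on chromosome 14 (FOS, 75278828 to 75282230), chromosome 19 (FOSB, 45467996 to 45475179), chromosome 11 (FOSL1, 65892049 to 65900545), chromosome 2 (FOSL2, 28392858 to 28417317), chromosome 1 (JUN, 58780791 to 58784047), and again chromosome 19 (JUNB, 12791486 to 12793315, and JUND, 18279694 to 18281622). JUN, JUNB and JUND have no introns. Promoter sequences from RefSeq (GRCh38.p14) were matched for 6 of the 7 genes, all but FOSL1. The 250 bases before the start of transcription were searched on both strands for the AP-1 site TGAGTCA and what it reads on the opposite strand, which is TGACTCA, for the cAMP response element TGACGTCA, for a shorter form of this element that lies within it, TGACGT, which reads on the opposite strand as ACGTCA, for the variant TGACATCA (TGATGTCA on the other strand), the EGR motifs GCGTGGGCG and GCGGGGGCG, and the CArG box of SRF. In this window neither TGAGTCA, an EGR motif nor a CArG box was found in any of the 6. Bases farther upstream were not searched, so sites there, CArG boxes included, are not covered by this result. FOS, FOSB and FOSL2 each held 1 TGACGT on the coding strand, at 64 to 59, 60 to 55 and 66 to 61 bases before the start. JUN held TGACATCA at 67 to 60 bases before the start. JUND held the full TGACGTCA at 200 to 193 bases before the start, and 1 more ACGTCA at 87 to 82. Over 35116 promoters of the same length, 7.1% held the shorter form, 1.65% the full element, 2.38% the variant, 4.2% the AP-1 site, 5.37% an EGR motif and 1.16% a CArG box. The windows of the 3 FOS genes with the shared TGACGT, of JUNB, which rose without a match, and of JUN, which changed little, are shown 5′ to 3′ on the coding strand with the matches in capitals.
FOS, chr14:75278578-75278827, plus strand: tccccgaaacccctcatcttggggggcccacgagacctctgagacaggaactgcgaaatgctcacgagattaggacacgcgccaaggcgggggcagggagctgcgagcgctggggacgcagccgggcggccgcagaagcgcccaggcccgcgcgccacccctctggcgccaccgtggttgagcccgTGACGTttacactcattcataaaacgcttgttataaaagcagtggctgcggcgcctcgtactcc
FOSB, chr19:45467746-45467995, plus strand: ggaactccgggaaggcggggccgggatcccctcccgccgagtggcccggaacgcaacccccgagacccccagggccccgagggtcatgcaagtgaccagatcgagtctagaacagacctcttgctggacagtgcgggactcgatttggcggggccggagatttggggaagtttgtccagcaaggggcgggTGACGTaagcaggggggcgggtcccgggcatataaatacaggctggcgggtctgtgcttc
FOSL2, chr2:28392608-28392857, plus strand: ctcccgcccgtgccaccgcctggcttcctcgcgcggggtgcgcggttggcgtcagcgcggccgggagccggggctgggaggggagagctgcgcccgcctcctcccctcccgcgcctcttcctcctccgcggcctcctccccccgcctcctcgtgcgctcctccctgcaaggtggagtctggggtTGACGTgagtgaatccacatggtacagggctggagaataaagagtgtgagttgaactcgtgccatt
JUNB, chr19:12791236-12791485, plus strand: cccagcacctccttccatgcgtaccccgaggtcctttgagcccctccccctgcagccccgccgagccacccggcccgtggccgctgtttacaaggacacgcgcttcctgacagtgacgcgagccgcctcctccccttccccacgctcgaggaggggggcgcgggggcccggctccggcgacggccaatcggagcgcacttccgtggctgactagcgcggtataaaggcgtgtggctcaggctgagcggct
JUN, chr1:58784048-58784297, minus strand: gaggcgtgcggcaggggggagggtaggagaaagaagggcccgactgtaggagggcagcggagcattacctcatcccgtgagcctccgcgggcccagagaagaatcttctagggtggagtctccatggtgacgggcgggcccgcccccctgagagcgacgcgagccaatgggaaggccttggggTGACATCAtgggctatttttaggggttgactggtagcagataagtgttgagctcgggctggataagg

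The 2 families differed in level before any stimulus. Levels of different genes are compared only as CPM (TMM-scaled counts relative to the library total) per kb of exon, with exon lengths of the GENCODE gene models. These lengths merge all annotated exons and need not match a single mRNA. JUN was given 3624 bases, more than its gene length of 3257 bases above, and FOS 3186 of 3403 bases. A longer exon length gives a lower level per kb. In control at 6 h, JUN stood at 146 ± 18.3 CPM per kb (SD, n = 4) and JUND, the member that many resting cells express steadily, at 107 ± 10.8. Their ranges did not overlap (124 to 168 against 95.1 to 119). JUNB followed at 7.33 ± 1.58, then FOSL2 at 3.34 ± 0.29 and FOSL1 at 2.47 ± 0.70, whose ranges overlapped (3.01 to 3.72 and 1.72 to 3.36). FOS (0.67 ± 0.11) and FOSB (0.33 ± 0.06) were lowest, with no overlap between them. JUN and JUND together held most of the summed level, 54.6% and 40.1% of it.

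**Figure D1:**
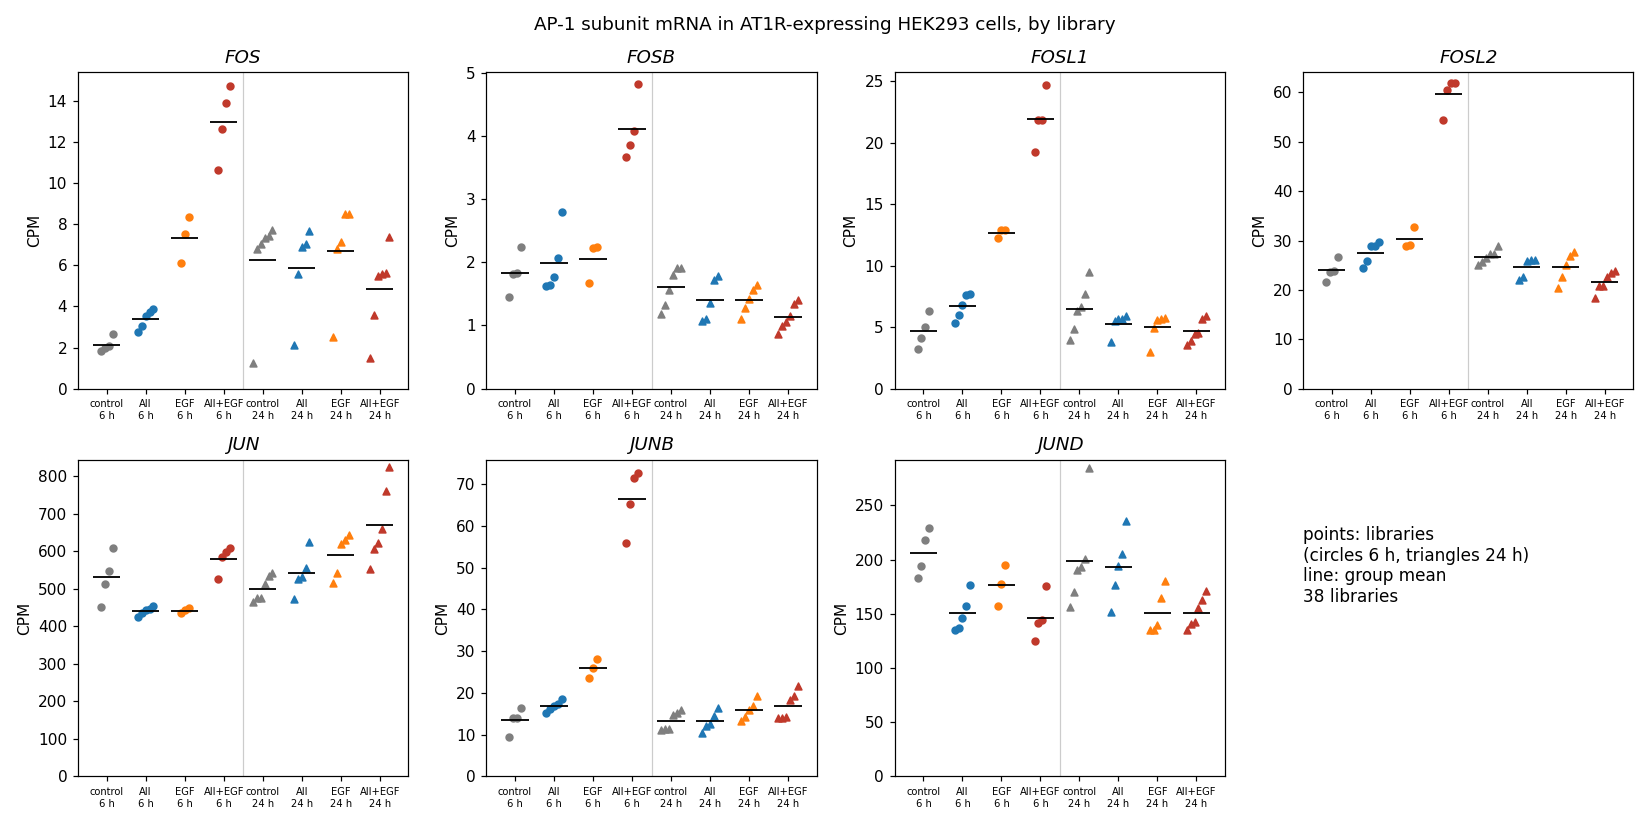
Expression of the 7 AP-1 subunits in CPM (y axis, linear, from 0, a scale per gene) in the 38 libraries (points, circles at 6 h and triangles at 24 h) of the 8 groups (x axis), with the group mean as a line. At 6 h FOS, FOSB, FOSL1, FOSL2 and JUNB of every AII + EGF library lay above every control library (FOS 10.7 to 14.7 against 1.83 to 2.64 CPM), and at 24 h AII + EGF overlapped control for all but FOSL2 and JUN.

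A gene is called changed below where the adjusted p of edgeR's quasi-likelihood test, over all 19626 genes, was under 0.01, the change at least 1.5-fold and the mean over 5 CPM in the higher group. Errors of log2 changes are standard errors of that fit.

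FOS, the founding immediate-early gene of the family, was at 1.83, 1.97, 2.06 and 2.64 CPM in the 4 control libraries at 6 h. It was at 2.74, 3.06, 3.52, 3.74 and 3.86 CPM under AII. EGF gave 6.11, 7.54 and 8.36 CPM, and AII + EGF 10.7, 12.7, 13.9 and 14.7 CPM. The 4 groups stood in this order without overlap. Under AII, 4.88% of all genes were likewise higher than control in every library. The log2 change against control was 0.67 ± 0.40 for AII (adjusted p = 0.544, not called), 1.78 ± 0.43 for EGF (adjusted p = 0.0061, 3.43-fold) and 2.60 ± 0.41 for AII + EGF (adjusted p = 3.01e-06, 6.08-fold). The EGF call rested on each library: with any 1 of the 7 libraries left out the log2 change stayed between 1.68 and 1.90, and the adjusted p rose to between 0.0105 and 0.0345. Without the 4 libraries of 1 stretch of sample titles at 24 h, described below, the same EGF change had an adjusted p of 1.1e-08. Likewise without them, the AII change was 0.66 ± 0.17 (adjusted p = 0.0212) and still not called. This set was chosen after the low FOS of those libraries was seen. Leaving them out lowers the spread of FOS by itself, so these smaller p-values are not separate support.

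FOSB, whose short splice form lacks part of the activation region, was the scarcest member. It was at 1.45, 1.81, 1.83 and 2.23 CPM in control, between 1.63 and 2.80 CPM under AII and between 1.68 and 2.24 CPM under EGF, which all overlapped. Under AII + EGF it was at 3.66, 3.86, 4.08 and 4.82 CPM, above every library of the other 3 groups. Its log2 change of 1.16 ± 0.20 (adjusted p = 1.38e-05) was 2.24-fold but stayed under the minimum of 5 CPM, so FOSB is not counted as called. The counts behind it were 33 to 49 in control and 72 to 90 under AII + EGF.

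FOSL1, a relative of FOS without its strong activation region, rose with EGF and rose further with both ligands. Control libraries held 3.24, 4.09, 5.01 and 6.33 CPM and AII libraries 5.37 to 7.72 CPM, which overlapped. EGF libraries held 12.2, 12.9 and 12.9 CPM, and AII + EGF libraries 19.3, 21.8, 21.9 and 24.7 CPM. The log2 change was 0.53 ± 0.21 for AII (adjusted p = 0.244), 1.44 ± 0.23 for EGF (adjusted p = 2.82e-05) and 2.23 ± 0.22 for AII + EGF (adjusted p = 1.63e-10).

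FOSL2, the other relative of that kind, showed little with a single ligand. It was at 21.6, 23.7, 23.8 and 26.7 CPM in control, 24.4 to 29.7 CPM under AII and 28.8, 29.2 and 32.7 CPM under EGF. AII + EGF brought it to 54.4, 60.4, 61.9 and 62.0 CPM, a log2 change of 1.32 ± 0.10 (adjusted p = 1.32e-13). For EGF the log2 change of 0.34 ± 0.10 did not pass (adjusted p = 0.0401), although its 3 libraries lay above all controls, and for AII it was 0.20 ± 0.09 (adjusted p = 0.349).

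JUNB, a JUN relative that can activate or antagonise JUN by context, was at 9.41, 13.9, 13.98 and 16.3 CPM in control and 15.3 to 18.5 CPM under AII. It reached 23.7, 25.99 and 28.1 CPM under EGF and 55.9, 65.3, 71.6 and 72.7 CPM under AII + EGF. EGF raised it by a log2 change of 0.95 ± 0.17 (adjusted p = 0.000149) and AII + EGF by 2.30 ± 0.16 (adjusted p = 3.81e-14), the change with the smallest adjusted p of the 7 genes in that comparison. For AII alone the log2 change of 0.32 ± 0.15 did not pass (adjusted p = 0.375).

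JUN, the partner of most FOS-containing dimers, moved little at 6 h and in another pattern. It was at 450.5, 514, 547 and 609.7 CPM in control, 424 to 454 CPM under AII and 434 to 449 CPM under EGF. Every EGF library was below every control library, as were those of 8.88% of all genes, and the AII libraries overlapped the control libraries at the edge. AII + EGF libraries were at 525, 586, 599 and 608 CPM, above all libraries of either single ligand but within the range of control. None of the 3 differences from control was called (log2 −0.27 ± 0.10, −0.26 ± 0.11 and 0.13 ± 0.11, adjusted p = 0.196, 0.2 and 0.385).

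JUND, the one JUN gene that lay lower under AII + EGF, did not pass the fold minimum. Control libraries held 183, 194, 218 and 229 CPM, AII libraries 136 to 176 CPM, EGF libraries 157 to 195 CPM and AII + EGF libraries 125, 141, 144 and 175 CPM. Every AII and every AII + EGF library lay below every control library, as did those of 2.64% and 15.9% of all genes. For AII + EGF the log2 change was −0.49 ± 0.14 (adjusted p = 0.006) and for AII −0.45 ± 0.13 (adjusted p = 0.0672), or 1.41-fold and 1.37-fold lower, both under the 1.5-fold minimum.

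Counted over the family, AII alone called 0 of 7 members at 6 h by edgeR (0.469% of all tested genes were called) and 0 by DESeq2, with 5 members at an unadjusted p under 0.05, as were 12.1% of all genes. EGF called FOS, FOSL1 and JUNB higher, 3 of 7, where 1.62% of all genes were called higher. AII + EGF called FOS, FOSL1, FOSL2 and JUNB higher, 4 of 7, against 6.45% of all genes. The members were chosen with earlier results of these data known, so these shares are given for description. With FOSB, 5 members were higher in every AII + EGF library than in every control library, against 17.4% of all genes, and 4 were so under EGF against 13.2%. The median log2 change of the 7 was 1.32 under AII + EGF at 6 h, against −0.03 over all tested genes, and 0.34 against −0.01 under EGF. In the 2 doubtful libraries, scaled with all 48, FOS was at 5.40 CPM, FOSL2 at 31.9 and JUNB at 38.3 in the one labelled AII, and at 2.89, 20.4 and 16.7 CPM in the one labelled AII + EGF. With the 2 doubtful libraries kept, the 4 AII + EGF calls held with log2 changes of 2.36 for FOS, 1.98 for FOSL1, 1.11 for FOSL2 and 2.07 for JUNB, and with all 48 libraries at 1.68, 1.87, 1.03 and 2.02. The EGF log2 changes were 1.78, 1.44 and 0.95 with 40 libraries, as with 38, but their adjusted p rose to 0.0333, 0.0175 and 0.0781, so that 0 of the 3 were called. With all 48 libraries FOSL1 and JUNB were called under EGF and FOS was not (log2 1.07, adjusted p = 0.0344).

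**Figure D2:**
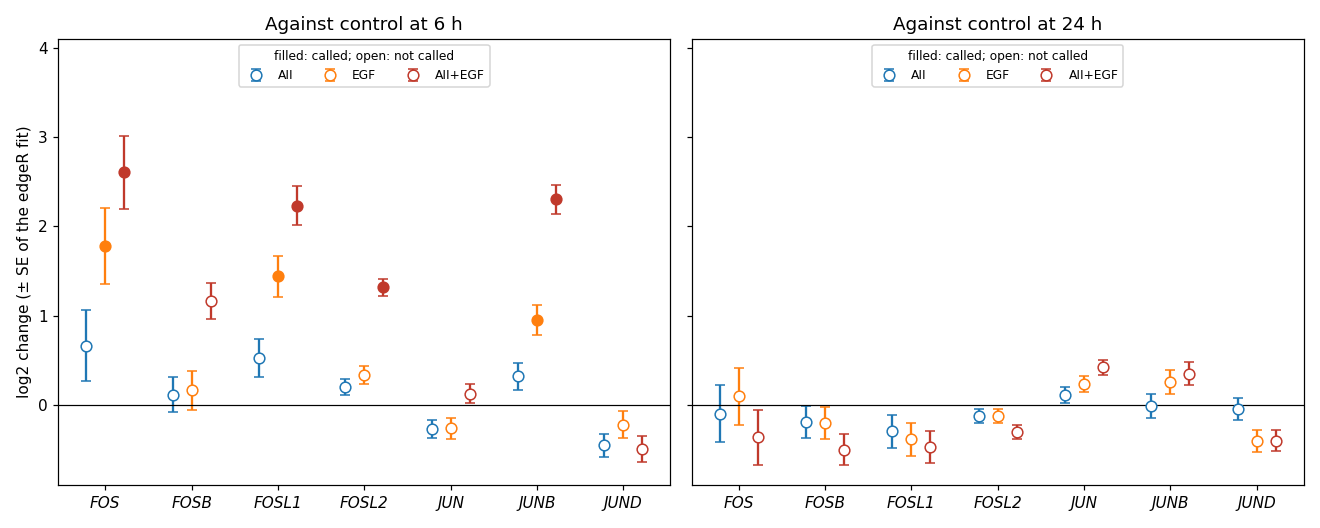
Log2 change of each AP-1 subunit against control at 6 h (left) and 24 h (right) for AII, EGF and AII + EGF, with the SE of the edgeR fit over 38 libraries as bars, filled where called. At 6 h the filled points are FOS, FOSL1 and JUNB for EGF and these with FOSL2 for AII + EGF (0.95 to 2.60), and at 24 h there is none.

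Setting AII + EGF against each single ligand at 6 h shows what the second ligand added. Over EGF, FOSL2 (log2 0.98 ± 0.10, adjusted p = 2.41e-08) and JUNB (1.36 ± 0.17, adjusted p = 5.36e-07) were called higher, 2 of 7 members against 1.62% of all genes. The AII + EGF libraries lay above every EGF library for 6 of 7 members, all but JUND, where 13.9% of all genes did so. FOS (0.82 ± 0.40, adjusted p = 0.204), FOSL1 (0.79 ± 0.22, adjusted p = 0.0162) and JUN (0.39 ± 0.11, adjusted p = 0.0222) did not pass. FOS and FOSL1 were called as well when only the 2 groups were fitted (adjusted p = 0.0016 and 0.000214) and with the run of consecutive sample titles as a block (0.81 and 0.94, adjusted p = 0.0026 and 7.66e-06). Over AII, the 4 members FOS (1.94 ± 0.36), FOSL1 (1.71 ± 0.20), FOSL2 (1.11 ± 0.09) and JUNB (1.98 ± 0.15) were called higher, against 4.21% of all genes, and the libraries did not overlap for the same 6 members, against 14.5%. JUN was 1.31-fold higher than under AII (adjusted p = 0.0025) and below the fold minimum. With 40 libraries FOSL2 (0.78, adjusted p = 0.022) and JUNB (1.12, adjusted p = 0.0359) were no longer called over EGF, whereas the 4 calls over AII held (1.16 to 1.55, FOSL2 0.87, with adjusted p of at most 0.007).

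The interaction at 6 h asks whether the joint fold change exceeds the product of the single ones. With the 38 libraries it was above 0 on the log2 scale in all 7 members (median 0.66, against −0.01 over all tested genes), at 0.78 ± 0.14 for FOSL2 (adjusted p = 0.0022), the 1 member called, against 0.0917% of all genes called higher. JUNB had the largest value, 1.03 ± 0.22 (adjusted p = 0.0141), followed by FOSB with 0.89 ± 0.29 (adjusted p = 0.172) and JUN with 0.66 ± 0.15 (adjusted p = 0.025), and none of these passed. For FOS (0.16 ± 0.57) and FOSL1 (0.27 ± 0.30), the members with the strongest response to EGF alone, the joint change did not differ detectably from the product, with 95% intervals of −0.97 to 1.29 and −0.34 to 0.87. JUND was at 0.18 ± 0.20. Without title run 8 at 24 h, described below and left out after its low FOS was seen, the errors were smaller. FOS was then at 0.18 ± 0.24 and FOSL1 at 0.28 ± 0.24 (adjusted p = 0.852 and 0.733). With 1 of the 16 libraries left out the FOSL2 value lay between 0.72 and 0.84, and the call was lost without EGF replicate 3 or EGF replicate 4 (adjusted p of at most 0.0146). With the 2 doubtful libraries kept it was 0.53 ± 0.24 (adjusted p = 0.9997) and with all 48 libraries 0.47 ± 0.20 (adjusted p = 0.956), and in both sets 0 genes of the table were called. FOS (−0.23) and FOSL1 (−0.28) were below 0 with 40 libraries, and FOSL1 (−0.16) with 48. By DESeq2, on the same 38 libraries, FOSL2, JUN and JUNB were called, and with the title run as a block FOSL2 and JUNB (1.03, adjusted p = 0.0054).

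**Figure D3:**
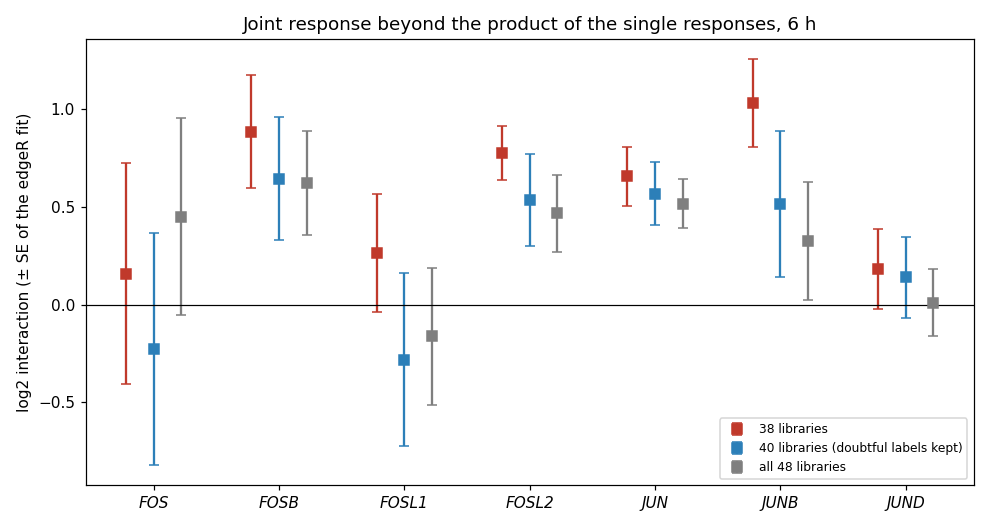
Interaction of AII and EGF at 6 h on the log2 scale (y axis, with the SE of the edgeR fit) for each AP-1 subunit in 3 sets of libraries: the 38 used, 40 with the doubtful labels kept, and all 48. FOSL2 fell from 0.78 with 38 libraries to 0.53 and 0.47, and JUNB from 1.03 to 0.51 and 0.33, while JUN stayed between 0.52 and 0.66.

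On the linear scale the joint effect was compared with the sum of the single effects, without a test. The excess at 6 h was 37.04 ± 4.34 CPM for JUNB (joint effect 53.0 CPM, sum of the single effects 15.9 CPM) and 25.8 ± 2.62 CPM for FOSL2 (35.7 against 9.91 CPM). It was 7.22 ± 1.38 CPM for FOSL1 (17.2 against 10.02 CPM), 4.396 ± 1.14 CPM for FOS (10.9 against 6.47 CPM) and 1.90 ± 0.41 CPM for FOSB (2.27 against 0.37 CPM). For these 5 genes the joint effect was above the sum. For JUN the excess of 227 ± 38.7 CPM had another make-up, since both single effects were negative (−89.8 and −88.1 CPM) and the joint one was 49.0 CPM. For JUND it was 25.3 ± 19.95 CPM. The share of all genes with an excess over 2 SE above 0 was not computed, so the counts that follow have no background. In all, the excess was over 2 SE above 0 in 6 of 7 members. With 40 libraries it was so in 4, FOS (2.05 ± 2.28 CPM) and FOSL1 (2.21 ± 4.02 CPM) being the ones lost. With all 48 libraries 3 did so (FOSB 1.26 ± 0.51, FOSL2 14.9 ± 7.11 and JUN 175 ± 40.5 CPM). At 24 h the excess of each member was within 1 SE of 0.

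At 24 h the induction seen at 6 h was not found. By edgeR, AII called 0 of 7 members (0% of all genes), with 0 at an unadjusted p under 0.05 (1.75% of all genes). EGF called 0 of 7 (0.245%), with 3 at an unadjusted p under 0.05 (14.7% of all genes), and AII + EGF 0 of 7 (2.9%), with 6 (32.1% of all genes). DESeq2 called 0 in each. FOSL1 was at 3.97, 6.49 and 9.48 CPM (lowest, median and highest) in control and 3.59, 4.51 and 5.94 CPM under AII + EGF. JUNB was at 11.1, 13.03 and 15.96 CPM in control and 13.9, 16.3 and 21.7 CPM under AII + EGF, which overlapped. The members that stood apart were JUN and FOSL2. JUN was at 466, 494 and 542 CPM in control and 552, 640.4 and 824 CPM under AII + EGF, higher in every library (log2 0.42 ± 0.09, adjusted p = 0.000491, 1.34-fold). FOSL2 was lower in every library, at 24.97, 26.8 and 28.8 CPM in control and 18.3, 21.8 and 23.9 CPM under AII + EGF (log2 −0.31 ± 0.08, adjusted p = 0.0049, 1.24-fold). Each was 1 of 7 members without overlap in its direction, against 2.62% of all genes higher and 2.11% lower, and both were under the fold minimum. JUND stood at 156, 192 and 284 CPM in control, 135, 139 and 180 CPM under EGF and 135, 149 and 171 CPM under AII + EGF, which overlapped (log2 −0.40 ± 0.12 for EGF, adjusted p = 0.075, and −0.40 ± 0.12 for AII + EGF, adjusted p = 0.0126). Its highest control library, replicate 3, moved both values to −0.27 when left out (adjusted p = 0.218 and 0.0584). FOSB was at 1.18, 1.68 and 1.91 CPM in control and 0.87, 1.11 and 1.40 CPM under AII + EGF (log2 −0.50 ± 0.17, adjusted p = 0.0386). AII + EGF against EGF called 0 of 7 members by either tool (0.0917% of all genes), with 2 members and 10.7% of all genes at an unadjusted p under 0.05. AII + EGF against AII likewise called 0 (1.45%), with 4 members and 25.3% of all genes at that p, and the interaction at 24 h 0 (0%), with 0 members and 3.36% of all genes.

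FOS at 24 h was set apart by 4 libraries. The sample titles are consecutive numbers that pass through the 4 treatments in runs, and the 24 h libraries fall into the runs 2, 3, 6 and 8. In the last of these FOS was at 1.24 CPM in control, 2.11 under AII, 2.49 under EGF and 1.51 under AII + EGF. In the other runs it was between 6.80 and 7.71, 5.57 and 7.65, 6.79 and 8.49, and 3.58 and 7.39 CPM. FOSL1 was likewise lowest in that run in all 4 groups, while FOSB, JUN and JUND were not. Over all tested genes, 8.22% were lowest and 7.28% highest there in all 4 groups. What the runs stand for is not given in the labels, and each run holds 1 time only, so run and time cannot be told apart.

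**Figure D4:**
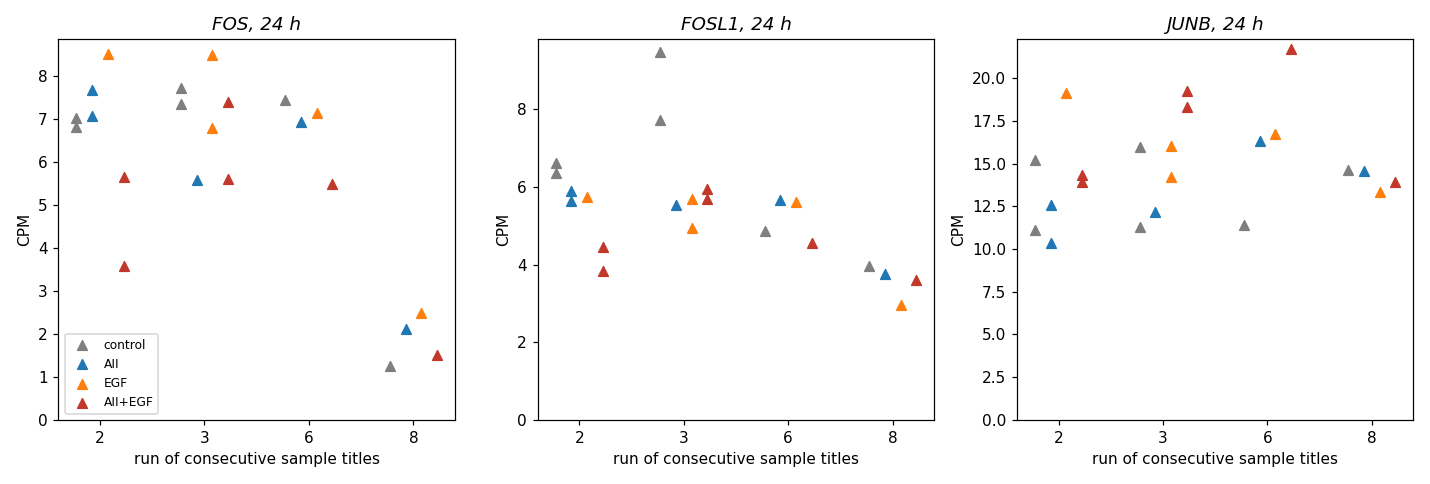
CPM (y axis, from 0) of FOS, FOSL1 and JUNB at 24 h in each library (points, coloured by treatment) against the run of consecutive sample titles (x axis). FOS of run 8 lay at 1.24 to 2.49 CPM in the 4 groups, below all libraries of runs 2, 3 and 6 (3.58 to 8.49 CPM), FOSL1 was lowest there in each group, and JUNB was not set apart.

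FOS also differed between the control groups of the 2 times. It was at 1.83 to 2.64 CPM at 6 h and at 1.24, 7.18 and 7.71 CPM (lowest, median and highest) at 24 h, a log2 difference of 1.54 ± 0.38 (adjusted p = 0.002), the 1 member called, against 4.77% of all genes called higher. The ranges overlapped through the run 8 library. Without run 8 the difference was 1.75 ± 0.17 (adjusted p = 8.51e-10), and the 5 other control libraries at 24 h had a mean of 7.26 ± 0.36 CPM (SD). Since run 8 was left out after its low FOS was seen, this smaller p-value is not separate support. With all 48 libraries it was 0.93 ± 0.36 and not called (adjusted p = 0.0613). The FOS mean in control at 24 h, 6.26 CPM, was near that under EGF at 6 h, 7.34 CPM. The other 6 members had log2 differences between −0.18 and 0.48 in this comparison and were not called.

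The difference of the responses at the 2 times was tested directly. The AII + EGF response of FOS was lower at 24 h than at 6 h by a log2 of −2.97 ± 0.51 (adjusted p = 2.64e-05), that of FOSL1 by −2.70 ± 0.28 (adjusted p = 2.33e-09), that of JUNB by −1.96 ± 0.20 (adjusted p = 2.85e-09) and that of FOSL2 by −1.62 ± 0.12 (adjusted p = 3.6e-12). These 4 of 7 compare with 6.08% of all genes. For FOS the control mean also moved, from 2.125 CPM at 6 h to 6.26 CPM at 24 h. Its mean under AII + EGF was 12.99 CPM at 6 h and 4.87 CPM at 24 h, so the FOS value is not a fall of induced FOS alone. FOSB gave −1.66 ± 0.27 (adjusted p = 8.63e-06) under the abundance minimum. JUN (0.29 ± 0.14, adjusted p = 0.111) and JUND (0.10 ± 0.18, adjusted p = 0.756) did not pass. The EGF response differed for FOSL1 alone among the members (−1.82 ± 0.29, adjusted p = 0.000169), against 0.78% of all genes, and was not called with 40 libraries (adjusted p = 0.0674), where the 4 AII + EGF differences were. The FOS value of −1.68 ± 0.53 did not pass (adjusted p = 0.0737). It passed only without run 8 (−1.65 ± 0.23, adjusted p = 2.18e-05), a set chosen after the low FOS there was seen. For AII 0 of 7 were called by edgeR and 0 by DESeq2 (0.138% of all genes), with 4 members and 8.02% of all genes at an unadjusted p under 0.05. These differences share control libraries with the comparisons above.

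Per kb of exon, the 4 FOS genes together made up 2.56 ± 0.33% of the summed CPM per kb of the 7 subunits in control at 6 h, 4.06 ± 0.20% under AII, 5.64 ± 0.34% under EGF and 8.36 ± 0.53% under AII + EGF (SD over libraries). JUNB made up 2.73 ± 0.54%, 4.24 ± 0.41%, 5.88 ± 0.63% and 12.2 ± 0.88%. The 4 groups did not overlap in either share. The summed FOS genes were at 6.81 ± 0.78 CPM per kb in control, 8.82 ± 0.53 under AII, 13.6 ± 0.72 under EGF and 24.7 ± 0.58 under AII + EGF. The summed JUN genes were at 260.4 ± 15.03, 208.7 ± 10.99, 227.7 ± 10.93 and 272 ± 17.9 CPM per kb. Their range under AII (197.7 to 223) and under EGF (215.4 to 236.3) lay below that of control (242.2 to 276.5). The higher shares under a single ligand therefore also hold this lower JUN sum. JUN and JUND still made up 53.9% and 25.5% under AII + EGF at 6 h. At 24 h the FOS share was between 2.58% and 3.68% and the JUNB share between 2.71% and 3.37% in all 4 groups. These are shares of mRNA that depend on the exon lengths used, and protein was not measured in these files.

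**Figure D5:**
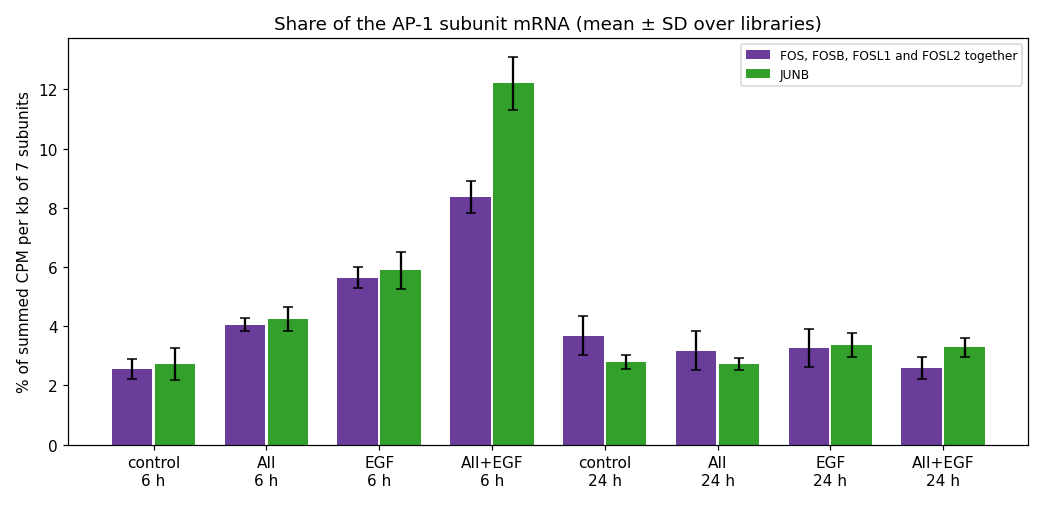
Share of the 4 FOS genes together and of JUNB in the summed CPM per kb of exon of the 7 AP-1 subunits (y axis, percent, from 0) in each group (x axis), as mean with the SD over libraries. Under AII + EGF at 6 h the shares were 8.36% and 12.2%, against 2.56% and 2.73% in control, and at 24 h all bars lay between 2.58% and 3.68%.

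Other genes of the AP-1 network were described from lists of its partners, inputs, mRNA and protein turnover and targets. The lists were chosen with earlier results of these data known, so their counts beside the shares of all genes are description and not a test. Of 15 other basic leucine zipper proteins that can pair with FOS or JUN, 14 were tested, and 4 rose under AII + EGF at 6 h, against 6.45% of all genes. Among them were MAFF (log2 2.81 ± 0.26, from 2.34 to 16.4 CPM) and BATF3 (2.51 ± 0.17, from 3.17 to 17.97 CPM), both small proteins without an activation domain, and MAFG (0.87 ± 0.12). At 24 h MAFK was the 1 called of 14 (0.82 ± 0.15, from 31.04 to 55.01 CPM), against 1.7% of all genes called higher. Of 21 kinases and factors upstream, including SRF, the ternary complex factors and the MAP kinases, RPS6KA3 (0.97 ± 0.10) and ELK3 (0.59 ± 0.11) rose and RPS6KA2 (−0.73 ± 0.13) fell at 6 h, and 0 were called at 24 h. These 3 of 21 are near the 12% of all genes called in either direction at 6 h. Of 10 genes of mRNA decay and protein turnover, ZFP36, whose product marks AU-rich mRNAs such as that of FOS for decay, rose (2.33 ± 0.24, from 1.005 to 5.07 CPM) and the other 9 were not called, so that 1 of 10 was called higher, near the 6.45% of all genes.

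Of 29 genes often named as AP-1 targets, 22 were tested and 10 rose under AII + EGF at 6 h, with none lower, against 6.45% of all genes called higher. This list too was chosen with earlier results of these data known, so the excess over that share is not an independent result. The largest change was that of MMP10, a matrix metalloproteinase, from 0.39 CPM in control to 2.86 under AII, 1.43 under EGF and 31.7 CPM under AII + EGF (log2 6.36 ± 0.45). IL11, a secreted cytokine, rose from 0.49 to 5.74 CPM (3.52 ± 0.30) and TGFB1 from 11.7 to 80.3 CPM (2.78 ± 0.36). HBEGF, a ligand of the EGF receptor, rose from 3.38 to 9.61 CPM (1.51 ± 0.13). EGF alone called 2 of the 22, TGFB1 and CCND1 (1.62% of all genes called higher), and AII alone called 0. The median log2 change of the 22 was 0.97, against −0.03 over all tested genes. At 24 h 2 of the 22 were called higher under AII + EGF (1.7% of all genes called higher), MT2A (1.33 ± 0.19, from 10.5 to 26.3 CPM) and PLAU (1.14 ± 0.19, from 2.85 to 6.29 CPM).

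Genes whose pattern was most like that of each called subunit were ranked by Pearson's r of log2 CPM over the 38 libraries, which share groups, runs and library depth. For FOS these were BHLHE40 (r = 0.93), PFKP (0.91) and ZNF395 (0.91). FOSL1 was followed by TCF7 (0.95), SLC2A1 (0.95) and KIAA0930 (0.95), FOSL2 by VAV2 (0.96), RNF24 (0.91) and PGBD5 (0.91), and JUNB by GADD45B (0.96), NCS1 (0.95) and GPR3 (0.95). Among the subunits, r was 0.88 between FOSL2 and JUNB, 0.88 between FOSL1 and FOSL2 and 0.85 between FOSL1 and JUNB. FOS stood nearer to FOSL1 (0.70) than to FOSB (0.27). JUN and JUND had r between −0.32 and 0.21 with every other member.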

How the data were processed

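The deposited table holds raw counts per gene, which the authors made by aligning reads to hg38 with HISAT2 2.1.0 and counting with featureCounts, per the labels and the study's methods. The strand setting is not given in the sources used here, so reads of overlapping or antisense genes cannot be told apart. Samples were grouped by the treatment and time in the labels. The members and lists were chosen with earlier results of these data known.

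Counts of 38 libraries (17.8 to 29.96 M each, mean 22.3 M) were fitted in 1 model of 8 groups with edgeR 4.0.16 in R 4.3.3 (TMM factors, filterByExpr, quasi-likelihood F-test), and p-values were adjusted by Benjamini-Hochberg over 19626 genes, in 16 comparisons. A call needed an adjusted p under 0.01, a 1.5-fold change and over 5 CPM. Counting error is small for JUN and JUND and largest for FOSB (as few as 19 counts in a library). The script was tested on simulated data. All 7 members were named in every comparison, from each other list the up to 4 called genes with the largest change, (MT2A, PLAU, CCND1 and the markers were named outside this rule, after their values were seen), and for each member called against control the 3 genes with the highest Pearson r of log2 CPM (prior count 2). Alternatives were DESeq2 1.42.0, RLE factors, other filters and thresholds, other library sets, title runs as a block and leaving out each library. The set without run 8 was chosen after seeing the data. CPM per kb used merged exon lengths of GENCODE gene models of another build (GRCh37). Protein sequences were not used here. The values of 1 gene of the partner list are not reported here.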

Additional observations from a re-analysis of the deposited data

Results flagged for a closer look

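Of 49 groups of 4 or more libraries examined over the 7 genes, 5 held a library whose gap to the nearest other was above Dixon's 95% critical value, where chance gives about 1 in 20. FOS was at 1.24 CPM in control at 24 h, replicate 6, with the other 5 libraries at 6.80 to 7.71 CPM, and at 2.49 CPM under EGF at 24 h, replicate 6, with the others at 6.79 to 8.49 CPM. FOSL1 was at 3.76 CPM under AII at 24 h, replicate 6 (others 5.53 to 5.88 CPM), and at 2.96 CPM under EGF at 24 h, replicate 6 (others 4.94 to 5.74 CPM). These 4 values come from 3 libraries, all of title run 8. JUND was at 284 CPM in control at 24 h, replicate 3, of title run 3, with the others at 156 to 200.1 CPM. Without it the log2 change of JUND under AII + EGF at 24 h was −0.27 (adjusted p = 0.0584) in place of −0.40. The cause of these gaps was not tested.

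The response at 24 h differed from that at 6 h, by the test of the difference itself, for FOSL1 under EGF (log2 −1.82, adjusted p = 0.000169) and, under AII + EGF, for FOS (−2.97, adjusted p = 2.64e-05), FOSL1 (−2.70, adjusted p = 2.33e-09), FOSL2 (−1.62, adjusted p = 3.6e-12) and JUNB (−1.96, adjusted p = 2.85e-09). The 4 differences under AII + EGF were called with each of the 20 libraries involved left out in turn. That of FOS also holds the higher control at 24 h (mean 6.26 CPM, against 2.125 CPM at 6 h).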

How the results depend on the processing

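Of 1228 recomputed log2 changes of the members, 1191 kept their side of the threshold, 22 were no longer called, 15 became called, and 0 called values changed direction. Among 807 values not called in either setting, 12 changed sign. The counts for AII + EGF against control and AII + EGF against AII at 6 h were 4 or 5 in every alternative run.

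The counts of called members that moved by over 1.5 times were these. With 40 libraries, the counts for EGF against control at 6 h (3), AII + EGF against EGF at 6 h (2), the interaction at 6 h (1) and the EGF response at 24 h minus 6 h (1) fell to 0. With all 48 libraries AII + EGF against EGF at 6 h gave 1, the interaction at 6 h 0, control at 24 h against control at 6 h 0, and the linear excess 3 in place of 6. With the title run as a block, as without title run 8, AII + EGF against EGF at 6 h gave 4, the interaction 2 and the EGF response 2. The block could not be fitted for control at 24 h against control at 6 h, since each run holds 1 time. With only the groups compared these were 4 (AII + EGF against EGF at 6 h), 3 (interaction) and 0 (control at 24 h against 6 h). For the interaction at 6 h no filter on low counts gave 0, DESeq2 3 and an adjusted p under 0.05 gave 3, and with 1 library left out it ranged from 0 (without EGF replicate 3 or 4) to 2 (without control replicate 5). Without the fold minimum AII + EGF against control at 24 h gave 2. Where the alternative holds other libraries or genes, the cause of the change was not tested further. Smaller moves were from 2 to 3 for AII + EGF against EGF at 6 h under DESeq2 and with an adjusted p under 0.05 (FOSL1 in both) and without the 5 CPM minimum (FOSB), from 4 to 5 for the AII + EGF response without that minimum, from 3 to 2 for EGF against control at 6 h with 48 libraries, and from 6 to 4 for the linear excess with 40. With 1 library left out, EGF against control at 6 h gave 2 in each case, losing FOS. With 3 EGF libraries at 6 h, leaving 1 out leaves 2.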
